A study of Mus musculus with 60 samples.

Results

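Calf muscles of male Dmdmdx/Largemyd double mutant mice were set against those of male C57Bl/6 mice at 21 days of age. The members were chosen by title: the 5 arrays titled MDXLG and the 5 titled C57BL at 21 days, 10 of the 60 arrays of the study. The study took untreated mice of 4 lineages: the double mutant, each single mutant (Dmdmdx or Largemyd) and, as normal control, C57Bl/6. There were 5 animals per lineage at 21 days and again at 3 and at 6 months. Dmdmdx mice carry a mutation that stops the making of full-length dystrophin, and Largemyd mice a mutation that impairs the glycosylation of dystroglycan. The double mutant carries both, and C57Bl/6 neither. The series title asks what makes Largemyd and double mutant muscle different from Dmdmdx muscle. Its labels give no background strain for the mutants, so genotype and strain cannot be told apart.

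Dystrophin ties the actin of a muscle fibre to dystroglycan in the membrane, and dystroglycan binds laminin outside the fibre through a sugar chain that a series of O-mannosyl enzymes builds on it. The Dmdmdx mutation breaks the inner end of this bridge and the Largemyd mutation the outer end. Fibres without the bridge are prone to injury when they contract: they die, macrophages clear them, and satellite cells rebuild them, a repair during which embryonic and neonatal myosins are made again. In Dmdmdx mice the first wave of this injury and repair comes at about weaning.

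Values are log2 expression after robust multi-array averaging (RMA), so a difference of 1 is 2-fold, and a gene was said to rise or fall at an adjusted p under 0.05 in limma. The 20 arrays of 21 days had means of 6.78 to 6.81. The skeletal muscle genes that define the tissue were present in all: Acta1 read 13.73 to 13.86 in the double mutant and 13.85 to 13.95 in C57Bl/6, and Ckm 13.38 to 13.62 and 13.73 to 13.79. Some arrays stood apart. Double mutant array 5 had marrow markers at a mean of 9.65, against 6.32 to 6.65 on the other double mutant arrays and 6.00 to 6.56 in C57Bl/6. Skin markers averaged 9.11 on double mutant array 3 and 8.08 on array 2, against 6.11 to 7.05 in C57Bl/6. Lymph node markers averaged 9.83 on C57Bl/6 array 2, against 6.11 to 8.0 in the double mutant and 5.91 to 6.23 on the other C57Bl/6 arrays. Double mutant arrays 1 and 5 also had the lowest values of many contractile and metabolic genes. Counts against C57Bl/6 that these arrays move are therefore given again with arrays left out. Leaving out the other-tissue arrays, those whose marker means passed a set level, drops double mutant arrays 3 and 5 and C57Bl/6 array 2. That leaves 3 double mutant and 4 C57Bl/6 arrays. Double mutant array 2 stayed in, with skin markers 1.81 and lymph node markers 1.8 above the median of 21 days, under the cut of 2. The other choice, made after seeing the data, drops double mutant arrays 1 and 5 together. Gene lists in the other comparisons were not counted again, apart from a microRNA cluster described below.

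The genes of the mutated pathway came first. Dmd, which encodes dystrophin, read 9.20, 9.02, 8.92, 9.07 and 8.94 in the double mutant, against 9.95, 9.24, 10.12, 9.68 and 9.61 in C57Bl/6, so that the groups did not overlap. It fell by 0.69 ± 0.18 (SE, adjusted p = 0.0018, limma, n = 5 each). Dmdmdx muscle lay lower still, at 8.31 to 8.83, and Largemyd muscle at 9.45 to 9.72. Double mutant Dmd was thus higher than that of Dmdmdx by 0.52 ± 0.18 (adjusted p = 0.023) and lower than that of Largemyd (-0.57, adjusted p = 0.044, limma). The probe set reads transcript along the gene and does not tell whether protein can be made from it.

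Utrophin, the dystrophin relative that can stand in for it, did not pass the test. Utrn read 9.07, 8.89, 8.94, 8.88 and 9.14 in the double mutant, against 9.14, 8.95, 8.99, 9.0 and 9.08 in C57Bl/6, a difference of -0.04 ± 0.07 (adjusted p = 0.66, limma). Dag1, which encodes dystroglycan itself, read 10.95, 10.57, 10.76, 10.98 and 10.79 in the double mutant, against 11.02, 11.02, 11.00, 11.13 and 11.12 in C57Bl/6. The 5 double mutant values all lay below the 5 controls, yet the difference of -0.25 ± 0.10 just missed the threshold (adjusted p = 0.055, limma), and without double mutant array 4 it passed (adjusted p = 0.035), as it did without array 1 (0.042). Of 14 measured members of the dystrophin complex, 1 rose and 2 fell, where the shares over all 19938 genes were 15.4% and 18.5%. Without double mutant arrays 1 and 5, 3 rose and 2 fell. Besides Dmd the faller was Sspn, sarcospan, a small membrane protein of the complex, with 9.05, 9.10, 9.53, 9.66 and 8.84 in the double mutant and 10.06, 9.91, 10.13, 9.90 and 10.02 in C57Bl/6 (-0.77 ± 0.16, adjusted p = 9.7e-05, limma). The riser was Dtnb, a dystrobrevin, by 0.31 ± 0.12, a call that ended without double mutant array 5 (0.23, adjusted p = 0.14) or array 1 (0.073), and without C57Bl/6 array 1, 3, 4 or 5 (0.056 to 0.11). The sarcoglycans Sgca, Sgcb and Sgcd, the dystrobrevin Dtna and the caveolin Cav3 differed by -0.19 to 0.20 and did not pass. Nos1, the nitric oxide synthase that dystrophin holds at the membrane, read 8.29, 7.24, 7.36, 7.78 and 7.41 in the double mutant and 7.83, 7.70, 8.09, 7.73 and 7.75 in C57Bl/6, with no call at this age (-0.20 ± 0.21, adjusted p = 0.47, limma).

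Transcripts of the enzymes that build the laminin-binding sugar chain were lower as a group. Of 13 measured, 8 fell and none rose, with a median difference of -0.28, against a median of 0.02 over all genes. B3galnt2, which adds N-acetylgalactosamine to the core chain, read 8.30, 8.72, 8.64, 8.69 and 8.34 in the double mutant, against 9.32, 9.03, 9.42, 9.49 and 9.42 in C57Bl/6. That is a fall of 1.74-fold (-0.80 ± 0.12, adjusted p = 9.6e-07, limma). Pomt1, part of the enzyme that adds the starting mannose, had 7.89, 8.05, 8.19, 8.15 and 8.02 in the double mutant and 8.51, 8.47, 8.52, 8.72 and 8.69 in C57Bl/6 (-0.52 ± 0.08, adjusted p = 1.2e-06, limma). Neither pair of groups overlapped. B4gat1, which primes the chain for the repeat that binds laminin, fell by 0.46, and Pomgnt1, which extends other O-mannose chains, fell by 0.45. Without the other-tissue arrays 7 of the 13 fell, and without double mutant arrays 1 and 5 there were 5.

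Transcripts of the proteins that dystroglycan binds outside the fibre were lower too. Of 11 laminin chains and other partners, 8 fell and none rose (median -0.34). The exception in direction was Lama2, the laminin chain of the muscle fibre's own basement membrane, at 0.18 ± 0.14 (adjusted p = 0.32, limma). Lama4, the laminin chain of vessels and of young basement membranes, read 8.80, 9.23, 9.23, 9.16 and 8.62 in the double mutant and 9.58, 9.28, 9.60, 9.71 and 9.72 in C57Bl/6, a fall of 0.57 (adjusted p = 0.00015, limma). Lamb2, found at the nerve-muscle junction, read 9.38, 9.55, 9.60, 9.82 and 9.43 in the double mutant and 10.05, 9.92, 10.06, 10.09 and 10.21 in C57Bl/6 (-0.51 ± 0.10, adjusted p = 9.2e-05, limma). Egflam (pikachurin), a dystroglycan ligand best known from the retina, fell by 0.66, and Agrn (agrin), which nerve releases to cluster acetylcholine receptors, fell by 0.27. Hspg2 (perlecan) fell by 0.35, a call that ended without double mutant array 1 (-0.27, adjusted p = 0.079) or 5 (0.077), or without C57Bl/6 array 4 (0.069) or 5 (0.066). Without the other-tissue arrays 8 fell, and without double mutant arrays 1 and 5 there were 5.

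Laminin is also bound by integrins, the other link between fibre and matrix. Of 21 integrin and costamere genes 7 rose and 4 fell, but without the other-tissue arrays 5 rose and 6 fell. Cd44, the receptor of hyaluronan, and Itga5, the fibronectin receptor chain, rose by 1.37 and 0.88, both with no overlap. Flnc, filamin C, an actin cross-linker at membrane and Z-disc, rose by 0.79 ± 0.19 with no overlap (11.20 to 12.19 in the double mutant, 10.49 to 11.17 in C57Bl/6). Itga6, a laminin receptor chain of vessels, fell by 0.82 ± 0.10, with 8.63 to 9.39 in the double mutant and 9.91 to 9.98 in C57Bl/6. Itga7, the laminin receptor chain of the fibre, read 9.17, 9.51, 9.85, 9.80 and 8.92 in the double mutant and 9.06, 8.79, 9.26, 9.10 and 9.12 in C57Bl/6. It did not pass (0.38 ± 0.17, adjusted p = 0.078, limma), though without double mutant array 5 it did (0.52, adjusted p = 0.021). Among 14 membrane repair genes 6 rose and 1 fell. The annexins Anxa1 and Anxa2, which seal torn membrane, rose by 1.27 and 0.98, and Myof, myoferlin, by 1.15, all with no overlap. The faller was Ehd2, a caveola protein, at 9.57 to 10.15 in the double mutant against 10.77 to 11.01 in C57Bl/6; without C57Bl/6 array 2 or 4, or double mutant array 3, 4 or 5, 2 members fell, as without the other-tissue arrays.

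Over the whole transcriptome 6759 of 19938 genes differed (33.9%), 3076 higher (15.4%) and 3683 lower (18.5%) in the double mutant. The shares higher and lower are those to set beside each list count against C57Bl/6. A difference of at least 2-fold was seen for 540 of the genes that differed (2.71% of all): 326 up (1.64%) and 214 down (1.07%). The 5 double mutant and 5 C57Bl/6 arrays did not overlap for 3700 genes (18.6%), of which 1339 were higher (6.72%) and 2361 lower (11.8%) in the double mutant. Large changes thus ran upward more often and small ones downward. Counts without the other-tissue arrays were 3121 and 3600, and without double mutant arrays 1 and 5 they were 2407 and 3159.

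**Figure D1:**
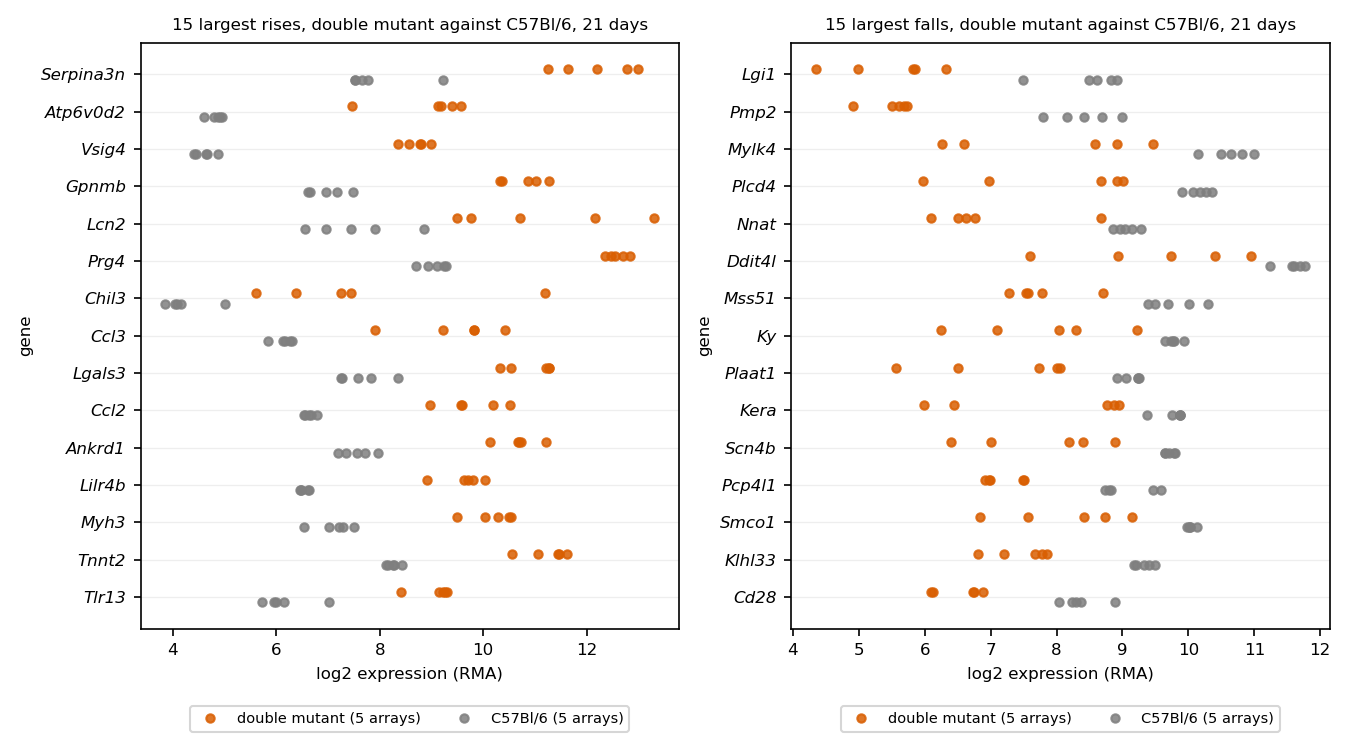
The 15 largest rises and 15 largest falls in log2 expression at 21 days; each point is 1 array, orange for the 5 double mutant and grey for the 5 C57Bl/6 arrays. For these 30 genes the 5 and 5 arrays do not overlap, which the rule for choosing them required, and Prg4 is tight in both groups while Lcn2 and Chil3 spread widely in the double mutant.

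The 15 largest rises mixed macrophage genes, acute phase genes and genes of newly built fibres. Serpina3n, a secreted protease inhibitor, read 12.99, 12.21, 11.25, 11.65 and 12.79 in the double mutant, against 7.77, 9.22, 7.53, 7.53 and 7.66 in C57Bl/6, a rise of 18.8-fold (4.24 ± 0.34, adjusted p = 4e-14, limma). Double mutant arrays 1 and 5 were the highest, and the groups lay far apart. Prg4 (lubricin), a lubricating glycoprotein of joints and tendon sheaths, read 12.85, 12.55, 12.35, 12.48 and 12.71 in the double mutant and 9.24, 8.70, 9.28, 8.94 and 9.11 in C57Bl/6. Its 11.6-fold rise (3.53 ± 0.24, adjusted p = 5.2e-16, limma) varied little between animals. Ankrd1, a stretch-responsive protein of the sarcomere and nucleus, was as even, with 10.68, 10.14, 11.22, 10.73 and 10.69 in the double mutant and 7.57, 7.20, 7.71, 7.96 and 7.34 in C57Bl/6 (3.14 ± 0.25).

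Other rises differed from animal to animal. Lcn2, an iron-binding acute phase protein, read 12.16, 10.72, 9.5, 9.77 and 13.31 in the double mutant and 7.90, 8.86, 7.44, 6.56 and 6.97 in C57Bl/6 (3.55 ± 0.84, adjusted p = 0.00072, limma). Chil3, a chitinase-like protein of macrophages and neutrophils, read 7.26, 7.45, 6.39, 5.61 and 11.20 in the double mutant and 3.85, 5.00, 4.08, 4.05 and 4.15 in C57Bl/6. Its rise of 3.35 was 2.45 without double mutant array 5, the array with marrow markers; the part of marrow in it was not tested. Atp6v0d2, a proton pump subunit of phagocytes and osteoclasts, was lower on double mutant array 1 (7.46) than on the other 4 (9.13 to 9.58), with 4.60 to 4.95 in C57Bl/6.

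The largest falls lay mainly in genes of the mature fibre and of Schwann cells. Lgi1, a secreted protein of nerve cells and myelinating glia, read 4.35, 5.83, 5.86, 6.33 and 4.99 in the double mutant, against 8.61, 7.49, 8.91, 8.49 and 8.82 in C57Bl/6 (-2.99 ± 0.38, adjusted p = 2.3e-08, limma). Pmp2, a fatty acid carrier of peripheral myelin, read 5.5, 5.73, 5.61, 5.69 and 4.92 in the double mutant and 8.99, 7.79, 8.16, 8.69 and 8.42 in C57Bl/6 (-2.92 ± 0.22, adjusted p = 5.9e-15, limma). Mss51, a mitochondrial protein of glycolytic fibres, read 7.53, 7.56, 7.78, 8.71 and 7.28 in the double mutant and 10.29, 9.49, 10.01, 9.69 and 9.39 in C57Bl/6 (-2.0 ± 0.33, adjusted p = 3.3e-06, limma). Cd28, known as a T cell co-receptor, was also among the largest falls: it read 6.09, 6.89, 6.75, 6.73 and 6.12 in the double mutant and 8.23, 8.88, 8.37, 8.03 and 8.29 in C57Bl/6 (-1.84 ± 0.15). It was the 1 gene of 20 T and NK cell markers that fell, while Il7r rose by 1.43, a call that ended with the 20 arrays of 21 days alone (adjusted p = 0.066) and with only the 10 arrays compared (0.16). The list's risers numbered 3 without C57Bl/6 array 2 and 7 without the other-tissue arrays, where its median was 0.30 (-0.15 with all arrays).

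Several of the falls were deepest on double mutant arrays 1 and 5. The kinase Mylk4 read 6.60, 8.92, 8.59, 9.47 and 6.27 in the double mutant and 10.15 to 10.99 in C57Bl/6. Likewise Plcd4, a phospholipase, read 6.98, 8.67, 8.92, 9.01 and 5.98 (C57Bl/6 9.90 to 10.36), and the sodium channel subunit Scn4b read 7.01, 8.19, 8.40, 8.89 and 6.40 (C57Bl/6 9.65 to 9.80). Nnat, Ddit4l, Ky, Plaat1, Kera and Smco1 had the same 2 arrays lowest, whereas for Pcp4l1 and Klhl33 array 5 was lowest and array 1 was not next to it. Calls for these 15 falls and for the 15 rises passed under each alternative that was run.

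Macrophage markers were raised almost throughout. Of 37 measured, 34 rose and none fell, the median difference was 1.58, and 26 were higher with no overlap between groups (6.72% of all genes). Their mean level was 8.57 to 9.35 in the double mutant and 7.14 to 7.83 in C57Bl/6. Both in counts without the other-tissue arrays and without double mutant arrays 1 and 5, 35 rose. In whole muscle, more cells of a type and more RNA per cell cannot be told apart.

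Resident and newly come macrophages share many of these markers. Vsig4, a complement receptor of resident macrophages, read 9.0, 8.36, 8.80, 8.56 and 8.78 in the double mutant, against 4.66, 4.41, 4.65, 4.44 and 4.88 in C57Bl/6. Lgals3, a galectin of phagocytes, read 10.32, 11.28, 11.28, 11.22 and 10.53 in the double mutant and 7.84, 8.36, 7.58, 7.28 and 7.25 in C57Bl/6. The phagosome protein Cd68 read 9.87, 10.82, 10.74, 10.67 and 10.30 in the double mutant and 7.60, 8.55, 7.71, 7.63 and 7.79 in C57Bl/6 (2.62 ± 0.28, adjusted p = 2e-10, limma). The control array with the most lymph node marker, array 2, was the highest of the C57Bl/6 arrays for Lgals3 and Cd68. Gpnmb, a glycoprotein of lipid-laden macrophages, and Ms4a6d rose by 3.79 and 2.66, and C1qb, a chain of the complement protein that starts the classical pathway, by 1.61. Adgre1 and Csf1r, the receptor that keeps macrophages alive, rose by 1.37 and 0.98, and the haemoglobin scavenger receptor Cd163 by 1.14.

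Chemokines that draw monocytes rose with them. Of 37 chemokines and cytokines 14 rose and 1 fell, with a median of 0.25. Ccl2 read 8.97, 10.52, 10.20, 9.58 and 9.59 in the double mutant, against 6.53 to 6.78 in C57Bl/6, and Ccl3 read 7.90, 10.43, 9.82, 9.82 and 9.22, against 5.84 to 6.31. Ccl7 rose by 2.82 and Ccl6 by 2.41. Osm, oncostatin M, rose by 0.68 with no overlap. Il6 itself rose by 0.61, a call that ended without double mutant array 5 (0.38, adjusted p = 0.16) or C57Bl/6 array 1 (0.082). Of 28 cytokine receptors and signalling genes 17 rose and 1 fell. Osmr, the receptor of oncostatin M, read 10.40, 9.52, 9.70, 9.64 and 10.54 in the double mutant and 8.89 to 9.27 in C57Bl/6 (0.89 ± 0.15). Stat3, which carries the signal of both cytokines, rose by 0.53, and Tlr7, a sensor of RNA in phagocytes, by 1.44. The chemokine that fell was Cxcl12, which retains stem cells, with 8.60, 9.14, 9.03, 9.31 and 9.95 in the double mutant and 9.53 to 9.79 in C57Bl/6 (-0.47 ± 0.17); its call ended without double mutant array 1 (-0.32, adjusted p = 0.15) or 3 (0.062), or C57Bl/6 array 1 (0.051) or 5 (0.055).

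Lists of other blood cells had few calls with all arrays, and some had more without the other-tissue arrays. Of 15 neutrophil markers 4 rose, among them Chil3 and Retnlg (2.72), and their mean was 10.87 on double mutant array 5 against 6.00 to 6.72 on the other double mutant arrays and 5.49 to 6.66 in C57Bl/6; without that array 2 rose. None of 13 B cell markers passed (2 rose without the other-tissue arrays), over a control range widened by C57Bl/6 array 2 (9.18, against 5.79 to 5.99 on the other C57Bl/6 arrays and 5.77 to 6.71 in the double mutant). Of 27 interferon-induced genes 2 rose and 2 fell, and leaving out single arrays gave 1 to 3 risers and 0 to 4 fallers; without the other-tissue arrays 4 rose and 1 fell. Of 8 genes of antigen presentation by MHC class II 1 rose, and without C57Bl/6 array 2 there were 3, or without double mutant array 1 or 5 there were 2. Without the other-tissue arrays 5 of the 8 rose, with a median of 0.69 (-0.03 with all arrays). The riser was H2-Ea, at 9.04, 5.5, 9.43, 9.65 and 9.27 in the double mutant and 5.34 to 5.75 in C57Bl/6. C57Bl/6 mice are known to lack a working promoter for this gene, double mutant array 2 lay in the C57Bl/6 range, and Largemyd arrays read 10.83 to 11.41 while Dmdmdx arrays read 5.21 to 5.59. Its call ended without the other-tissue arrays (2.47, adjusted p = 0.099).

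Genes of the acute phase answer interleukin 6 and its relatives, and many were raised. Of 24 measured 15 rose and none fell (median 0.65), 14 without the other-tissue arrays and 9 without double mutant arrays 1 and 5. Socs3, the feedback inhibitor of these cytokines, read 8.37, 8.0, 9.36, 8.49 and 10.62 in the double mutant and 7.35, 7.83, 7.56, 7.43 and 7.40 in C57Bl/6 (1.46 ± 0.32, adjusted p = 3e-04, limma). Hp (haptoglobin), which binds free haemoglobin, read 8.76, 9.93, 8.06, 7.88 and 10.17 in the double mutant and 7.84, 7.46, 7.05, 6.98 and 6.66 in C57Bl/6. Junb, a transcription factor of the immediate response, rose by 1.12 ± 0.13 with no overlap.

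The metallothioneins Mt1 and Mt2, which bind zinc and other metals, were higher on every double mutant array than on any C57Bl/6 array. Mt1 read 13.12, 12.31, 12.06, 12.22 and 13.30 in the double mutant, against 11.25, 10.39, 10.11, 9.43 and 9.31 in C57Bl/6 (5.67-fold, 2.50 ± 0.26, adjusted p = 1.7e-10, limma). Mt2 read 13.55, 13.46, 13.33, 13.38 and 13.50 in the double mutant and 12.69, 11.55, 11.47, 10.54 and 10.31 in C57Bl/6 (4.39-fold). For both genes the C57Bl/6 values spread more widely than the double mutant values, and C57Bl/6 array 1 was the highest control. In the metallothionein and zinc transport list 5 of 10 rose and 2 fell. Slc39a14, an importer of zinc and iron, read 9.51, 7.22, 7.55, 7.48 and 9.09 in the double mutant and 7.10 to 7.26 in C57Bl/6, and its rise of 0.97 ended without arrays 1 and 5 together (0.22, adjusted p = 0.24). Because the pair stands side by side on chromosome 8 and moved together, the bases before the start of Mt2 are shown, from RefSeq (GRCm38.p6, chr8:94172368-94172617, plus strand), with matches to the core of the metal response element in capitals (TGCACNC or TGCGCNC, on either strand; the matches do not overlap).
Mt2: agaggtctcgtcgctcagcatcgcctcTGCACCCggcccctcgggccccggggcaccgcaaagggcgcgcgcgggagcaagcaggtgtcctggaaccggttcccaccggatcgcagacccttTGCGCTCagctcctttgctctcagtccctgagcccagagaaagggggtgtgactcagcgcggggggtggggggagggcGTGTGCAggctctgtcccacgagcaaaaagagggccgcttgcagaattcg
The stretch holds 3 matches, as do 1.26% of 32851 promoters with at least that many, and the same length before Mt1 holds 1, where 21.4% of promoters hold at least 1. These are matches of letters only, within the 250 bases before the annotated start. Bases outside that stretch were not searched, so the counts need not cover all such elements of Mt1 or Mt2.

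Signs of other stress varied in extent. Hmox1, which breaks down haem, rose by 1.45 ± 0.29, with 9.05 to 9.93 in the double mutant and 7.34 to 8.87 in C57Bl/6. Of 6 genes listed as phagocyte oxidase 5 rose, 3 without double mutant array 5 or C57Bl/6 array 3. Cybb, the catalytic subunit in phagocytes, rose by 1.76 (9.21 to 11.40 in the double mutant, 8.03 to 9.96 in C57Bl/6), and Nox4, its relative outside phagocytes, by 1.26 with no overlap. Among 33 genes of the unfolded protein and integrated stress response 11 rose and 2 fell. Asns, which makes asparagine under amino acid shortage, rose by 1.39 ± 0.21 (9.36 to 10.25 in the double mutant, 8.13 to 8.57 in C57Bl/6). The serine synthesis enzymes Phgdh and Psat1 rose by 0.80 and 0.95 with no overlap. The number of fallers in that list was 1 without C57Bl/6 array 1 or 2 or double mutant array 3, and 4 without double mutant array 1. Of 19 heat shock genes 2 rose and 5 fell, with 3 fallers without double mutant array 1, 2 without array 5 and 1 without both, and the small chaperone Hspb1 rose by 1.26 with no overlap. Xdh, xanthine dehydrogenase, which makes uric acid, rose by 1.56, and Gsta4, which clears lipid peroxidation products, fell by 1.21.

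Markers of fibres under construction were higher. Of 22 genes of the developmental sarcomere and embryonic muscle 12 rose and 1 fell, with a median of 0.91. Their mean level was 9.84 to 10.38 in the double mutant and 8.95 to 9.35 in C57Bl/6. Myh3, embryonic myosin, read 10.04, 10.28, 10.54, 10.50 and 9.5 in the double mutant, against 7.02, 6.54, 7.51, 7.22 and 7.29 in C57Bl/6, a rise of 3.06 ± 0.36 (adjusted p = 3.9e-09, limma). Myh8, neonatal myosin, read 11.41, 10.24, 10.83, 10.94 and 10.48 in the double mutant and 8.22, 7.62, 8.19, 8.13 and 7.84 in C57Bl/6 (2.78 ± 0.25). Myl4, the embryonic light chain, read 12.57, 12.63, 12.81, 12.86 and 12.09 in the double mutant and 10.76, 10.29, 10.71, 10.35 and 10.43 in C57Bl/6 (2.09 ± 0.15, adjusted p = 5.9e-15, limma). Double mutant array 5 was the lowest of its group for Myh3 and Myl4. Tnnt2, the troponin T of heart and embryonic muscle, rose by 2.98.

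The faller in the list was Actc1, cardiac actin, which is also made in young muscle. It read 12.53, 13.34, 13.31, 13.19 and 11.73 in the double mutant and 13.63 to 13.76 in C57Bl/6 (-0.87 ± 0.19), a call that ended without double mutant arrays 1 and 5 together (-0.41, adjusted p = 0.066). Without C57Bl/6 array 2, or without the other-tissue arrays, there were 3 fallers, and without double mutant array 3 or 4 there were 2. Risers numbered 12 without the other-tissue arrays and 11 without double mutant arrays 1 and 5.

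Genes that drive the making of fibres were split. Of 26 satellite cell and myogenic regulators 6 rose and 8 fell, 5 without double mutant array 5. Mymk (myomaker), the membrane protein that fuses myoblasts, read 10.29, 10.45, 10.60, 10.68 and 9.47 in the double mutant and 8.35, 8.06, 8.40, 9.14 and 9.0 in C57Bl/6 (1.71 ± 0.33, adjusted p = 5.3e-05, limma). Its partner in fusion Mymx (myomixer) rose by 1.10 with no overlap, and Myog (myogenin), the factor of differentiating myoblasts, by 1.08 ± 0.27. The fallers included genes of Notch signalling, which keeps satellite cells quiescent: Notch3 fell by 0.60 with no overlap and its target Hey1 by 0.56. Both are also genes of vessel and perivascular cells, and in whole muscle the cells in which they fell cannot be told. Heyl fell by 0.51 and Hes1 by 0.38, calls that ended without double mutant array 5 (-0.39, adjusted p = 0.051) and without array 1 (-0.30, adjusted p = 0.056). Pax7, the factor of satellite cells, differed by 0.05 ± 0.11 and Myod1, which commits them, by 0.31 ± 0.23; neither passed. At the neuromuscular junction 5 of 14 genes rose and none fell, also in the counts without the other-tissue arrays and without double mutant arrays 1 and 5, while 1 fell without C57Bl/6 array 2 or double mutant array 3 or 4. Chrng, the fetal subunit of the acetylcholine receptor, read 8.28, 8.62, 8.73, 8.70 and 7.62 in the double mutant and 6.08, 6.37, 6.56, 6.63 and 6.92 in C57Bl/6 (1.88 ± 0.28). Chrnd and Chrna1, the delta and alpha subunits, rose by 1.08 and 0.99.

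Cell division genes were raised unevenly. Of 36 measured 28 rose and 1 fell, with a median of 0.88, but 14 rose without double mutant array 5 and 17 without C57Bl/6 array 1, 26 without the other-tissue arrays and 19 without double mutant arrays 1 and 5. Their mean level was 8.27 on array 5 and 7.00 to 7.73 on the other double mutant arrays, against 6.48 to 7.19 in C57Bl/6. Cdk1, the kinase of mitosis, read 8.18, 8.91, 8.89, 9.14 and 9.5 in the double mutant and 7.29, 7.97, 6.98, 8.06 and 7.47 in C57Bl/6 (1.37 ± 0.37, adjusted p = 0.0034, limma). The faller was Pttg1 (securin), which guards chromosome separation. It read 7.42, 7.70, 7.56, 7.29 and 7.82 in the double mutant, against 9.56, 9.13, 9.35, 9.45 and 9.40 in C57Bl/6, a fall of 1.82 (adjusted p = 5.9e-15, limma). Dmdmdx arrays read 7.52 to 7.95 for it and Largemyd arrays 8.87 to 9.27.

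Imprinted genes of fetal growth, many of which are turned down after birth, were mostly higher. Of 20 measured 12 rose and 2 fell (median 0.47), 9 rose without the other-tissue arrays and 10 without double mutant arrays 1 and 5. Dlk1, a Notch-like protein of fetal muscle, read 11.14, 10.13, 11.13, 11.15 and 10.77 in the double mutant, against 9.53, 9.24, 9.59, 9.46 and 9.38 in C57Bl/6 (1.42 ± 0.18, adjusted p = 1.2e-08, limma). Peg10 rose by 1.40, Peg3 by 1.13 and the non-coding RNA Meg3 by 1.11, each with no overlap. The fallers were Nnat and Ndn (necdin, -0.52), and the second of these lost its call without double mutant arrays 1 and 5 (-0.27, adjusted p = 0.24). Igf2, a fetal growth factor, rose by 0.58, a call that ended without C57Bl/6 array 4 (0.53, adjusted p = 0.057) or 5 (0.054) and without double mutant array 1 (0.062) or 4 (0.059).

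Dlk1 and Meg3 lie at the start of an imprinted stretch of chromosome 12 that carries a large cluster of microRNA genes, transcribed with Meg3 and Rian from the maternal chromosome. The array holds 40 hairpins of this cluster, which were looked at after the values of Dlk1 and Meg3 had been seen. A hairpin probe set reads precursor or host transcript and not the mature microRNA. All 40 differences were positive, from 0.06 to 1.86 with a median of 0.64, and 35 hairpins rose while none fell. Without the other-tissue arrays 26 rose (median 0.48), and 26 rose with only the arrays of the groups compared. Without double mutant arrays 1 and 5 there were 38. Among the other 260 hairpins of the array 39 rose and 15 fell, with a median of 0.06, where 15.4% of all genes rose and 18.5% fell. The 7 hairpins that rose at least 2-fold lie between 109594506 and 109734974 of chromosome 12 (GRCm38.p6, plus strand). Their mature sequences from RefSeq are shown so that the products of the risen hairpins can be told apart, with the seed, bases 2 to 8, in capitals.
miR-434-5p: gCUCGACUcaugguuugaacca
miR-434-3p: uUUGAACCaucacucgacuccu
miR-136-5p: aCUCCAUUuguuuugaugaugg
miR-136-3p: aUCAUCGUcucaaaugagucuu
miR-380-5p: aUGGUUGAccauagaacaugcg
miR-380-3p: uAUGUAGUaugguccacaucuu
miR-300-5p: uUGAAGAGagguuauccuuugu
miR-300-3p: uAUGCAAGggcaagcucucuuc
miR-382-5p: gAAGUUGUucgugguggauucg
miR-382-3p: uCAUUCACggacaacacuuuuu
miR-134-5p: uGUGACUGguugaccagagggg
miR-134-3p: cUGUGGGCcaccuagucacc
miR-485-3p: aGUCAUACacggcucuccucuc
None of these 13 shares its seed with another of them, and among the 76 mature sequences of the cluster in the RefSeq table used, which lacks 1 arm of some hairpins, 2 seeds were shared by 2 mature microRNAs each: AUGUAAC by miR-379-3p and miR-411-3p, and UGGAUAU by miR-376b-5p and miR-376c-5p.

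Mir136 moved the most, with 7.72, 4.83, 6.23, 6.75 and 6.23 in the double mutant and 4.82, 4.10, 4.73, 4.57 and 4.27 in C57Bl/6 (1.86 ± 0.27, adjusted p = 2.2e-07, limma). Mir382 read 8.57, 7.68, 9.16, 8.37 and 8.19 in the double mutant and 7.09, 6.27, 7.23, 6.65 and 6.52 in C57Bl/6 (1.64 ± 0.19, adjusted p = 1.9e-09, limma). Mir134 read 9.83, 9.05, 9.96, 9.57 and 9.23 in the double mutant and 8.10, 7.53, 8.07, 7.93 and 7.92 in C57Bl/6 (1.62 ± 0.14, adjusted p = 8.8e-13, limma). For all 3 the groups did not overlap, and double mutant array 2 was the lowest of its group. Mir380, Mir300, Mir485 and Mir434 rose by 1.58, 1.25, 1.12 and 1.05, and Mir434 alone of the 7 overlapped, with 3.97 on double mutant array 2 against 3.48 to 4.10 in C57Bl/6. The host Rian rose by 1.17 and the antisense partner Rtl1 by 0.67.

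**Figure D2:**
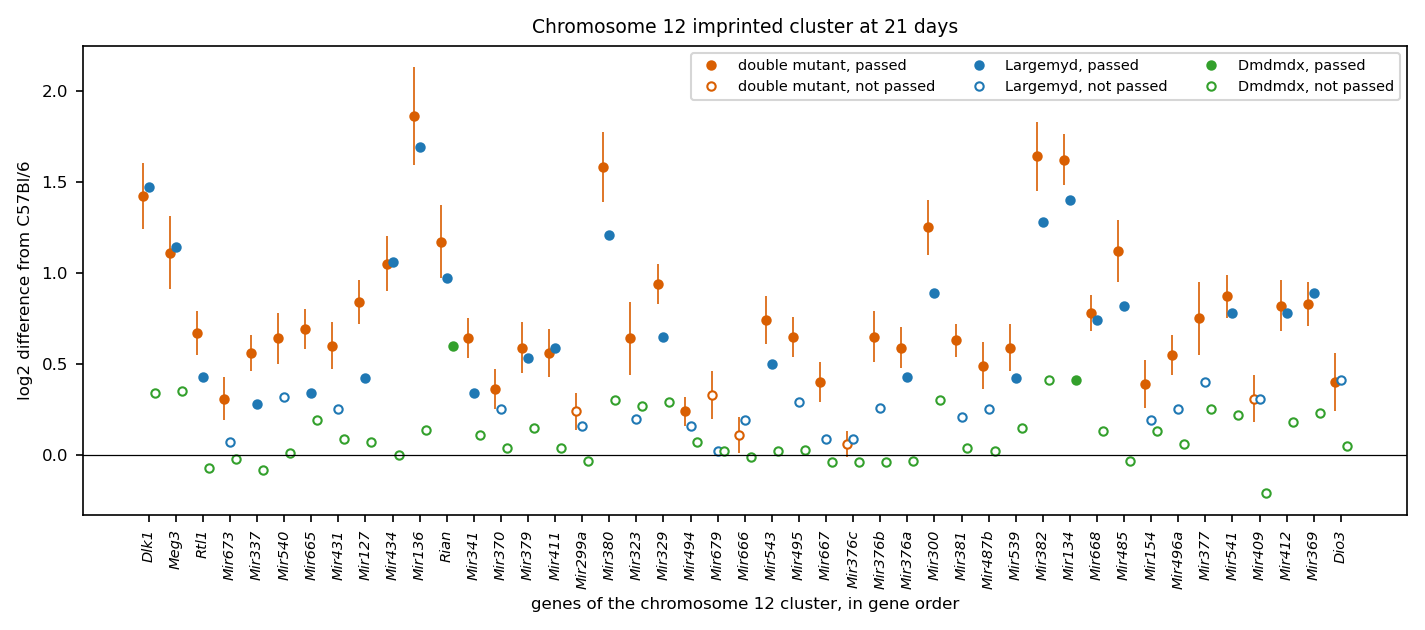
Log2 difference from C57Bl/6 at 21 days of the 45 measured genes of the chromosome 12 cluster in gene order: double mutant (orange), Largemyd (blue) and Dmdmdx (green), with bars of 1 SE for the double mutant; filled symbols passed the test in their own comparison. The double mutant points lie above 0 for all 40 hairpins, and the 3 lineages share the same 5 C57Bl/6 arrays.

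Other hairpins with known roles in muscle, vessels or immune cells differed by less than 1. Mir206, made in regenerating fibres, differed by 0.37, a call that ended without any of 3 C57Bl/6 or 3 double mutant arrays (lowest 0.26, adjusted p = 0.17, without double mutant array 4). Mir27a, Mir23a and Mir24-2 of a single cluster rose by 0.82, 0.66 and 0.47. Mir499, which lies in a slow myosin gene, fell by 0.59. The endothelial Mir126a fell by 0.33, a call that ended without C57Bl/6 array 1 (-0.25, adjusted p = 0.065).

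Most genes of energy metabolism were lower. Of 35 subunits of complex I, the entry of the respiratory chain, 31 fell and none rose, with a median of -0.54 and 29 members lower without overlap (11.8% of all genes). Their mean level was 9.97 to 10.57 in the double mutant and 10.83 to 11.10 in C57Bl/6. All 14 genes of complexes II and III fell, as did 14 of 19 of complex IV and 13 of 16 of the ATP synthase. Without double mutant arrays 1 and 5 these 4 counts were 24, 10, 14 and 10, and without the other-tissue arrays 30, 13, 14 and 13. Ndufc1 of complex I read 10.15, 10.64, 10.67, 10.87 and 9.64 in the double mutant and 11.75, 11.53, 11.67, 11.75 and 11.69 in C57Bl/6 (-1.29 ± 0.15, adjusted p = 5.6e-09, limma). Cox7a1, the muscle form of a complex IV subunit, read 10.89, 11.52, 11.43, 11.94 and 9.93 in the double mutant and 12.63, 12.46, 12.51, 12.56 and 12.50 in C57Bl/6 (-1.39 ± 0.20, adjusted p = 2.9e-07, limma). The riser among 16 ATP synthase genes was Atpif1, which inhibits the enzyme: it read 11.33, 11.60, 11.64, 11.55 and 11.80 in the double mutant and 10.99, 11.09, 10.95, 11.13 and 11.05 in C57Bl/6 (0.54 ± 0.12).

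The pathways that feed the chain were lower as well. Of 23 genes of the tricarboxylic acid cycle and pyruvate entry 18 fell, of 32 of fatty acid oxidation 22 fell, and of 23 of mitochondrial dynamics and DNA 17 fell. None of them rose, though 1 of fatty acid oxidation did without double mutant array 3. Sucla2, a subunit of succinyl-CoA synthetase, read 10.65, 10.96, 10.85 and 10.84 on double mutant arrays 1 to 4 and less on array 5, against 11.33 to 11.76 in C57Bl/6 (-0.95 ± 0.13). Decr1, an auxiliary enzyme of fatty acid oxidation, read 9.23, 9.73, 9.71, 10.08 and 9.24 in the double mutant and 10.71, 10.31, 10.68, 10.86 and 10.79 in C57Bl/6 (-1.08 ± 0.12, adjusted p = 6.7e-10, limma). Me1, the cytosolic malic enzyme, was tight in both groups, with 8.46 to 8.91 in the double mutant and 10.20 to 10.49 in C57Bl/6 (-1.59 ± 0.15). Of 30 glycolysis and glycogen genes 15 fell and 2 rose. Among the risers was the mutase Pgam1 (0.59), and among the fallers its muscle form Pgam2 (-1.05). Phkg1, the catalytic subunit of muscle phosphorylase kinase, read 9.64, 10.11, 10.14, 10.36 and 8.23 in the double mutant and 11.25 to 11.42 in C57Bl/6 (-1.65 ± 0.22). The oxygen store Mb (myoglobin) and the mitochondrial creatine kinase Ckmt2 both fell by 1.35.

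**Figure D3:**
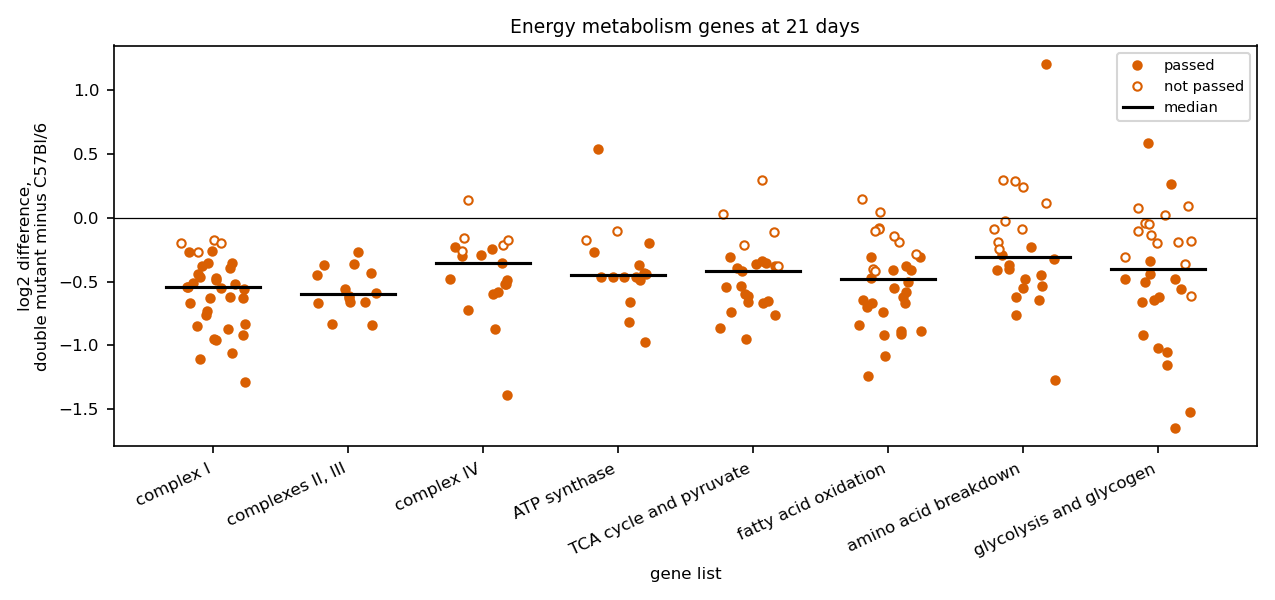
Log2 difference (double mutant minus C57Bl/6 at 21 days) of each measured gene of 8 energy metabolism lists; filled points passed the test, open points did not, and the bar is the list median. The filled points lie below 0 apart from Atpif1 in the ATP synthase list, 1 gene of amino acid breakdown and 2 of glycolysis and glycogen.

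Genes of contraction were lower to a smaller degree. Of 21 fast fibre sarcomere genes 12 fell and none rose (median -0.24), 7 without double mutant arrays 1 and 5, and 1 rose without C57Bl/6 array 4 or double mutant array 2 or 3. Of 23 genes of excitation-contraction coupling and calcium handling 14 fell and none rose (median -0.44), 15 without the other-tissue arrays and 10 without double mutant arrays 1 and 5. Clcn1, the chloride channel that steadies the resting fibre, read 7.99, 8.76, 8.81, 9.05 and 7.39 in the double mutant and 9.86, 9.44, 9.78, 9.75 and 9.67 in C57Bl/6 (-1.30 ± 0.22). Cacna1s, the voltage sensor of the T-tubule, read 11.05, 11.15, 11.44, 11.56 and 10.43 in the double mutant and 11.77 to 11.97 in C57Bl/6 (-0.78 ± 0.16), and Jph2, which holds T-tubule and calcium store together, fell by 1.10. Sln (sarcolipin), a brake on the calcium pump that is high in young muscle, read 9.13, 7.81, 7.60, 8.13 and 8.17 in the double mutant and 6.67, 6.09, 6.95, 6.78 and 6.87 in C57Bl/6 (1.5 ± 0.19, adjusted p = 1.5e-08, limma). In the slow fibre list Sln and Myh7b were the 2 of 14 that rose, and 2 fell, near the 15.4% and 18.5% over all genes. Without double mutant arrays 1 and 5 none fell. Myh7b differed by 0.27, a call that ended without C57Bl/6 array 2 (adjusted p = 0.081) or 5 (0.065) or double mutant array 2 (0.062) or 3 (0.061). Myl3, the slow light chain, fell by 1.84, a call that ended without double mutant arrays 1 and 5 together (-1.04, adjusted p = 0.1). Myl2, the other slow light chain, fell by 1.39, a call that ended without double mutant array 5 (-1.10, adjusted p = 0.056).

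Vessel genes were lower almost without exception. Of 30 endothelial markers 28 fell and none rose, with a median of -0.63, 27 of them without overlap, and 28 fell also without the other-tissue arrays and without double mutant arrays 1 and 5. Their mean level was 8.55 to 8.84 in the double mutant and 9.23 to 9.46 in C57Bl/6, so that no double mutant array reached the lowest control. Aplnr, the apelin receptor of growing vessels, read 7.34, 7.89, 8.09, 8.38 and 7.56 in the double mutant, against 9.18, 9.19, 9.33, 10.33 and 10.29 in C57Bl/6 (-1.81 ± 0.24, adjusted p = 4.9e-08, limma). Cdh5, the cadherin of endothelial junctions, read 10.53, 10.70, 10.96, 10.82 and 10.98 in the double mutant and 11.43, 11.37, 11.38, 11.86 and 11.93 in C57Bl/6 (-0.79 ± 0.13). Of 15 smooth muscle and pericyte markers 9 fell and none rose; Rgs5 of pericytes read 10.15 to 10.96 in the double mutant and 11.48 to 11.82 in C57Bl/6 (-1.07 ± 0.12). The growth factor Vegfa fell by 0.59 and its groups overlapped (9.52 to 9.97 in the double mutant, 9.87 to 10.52 in C57Bl/6).

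**Figure D4:**
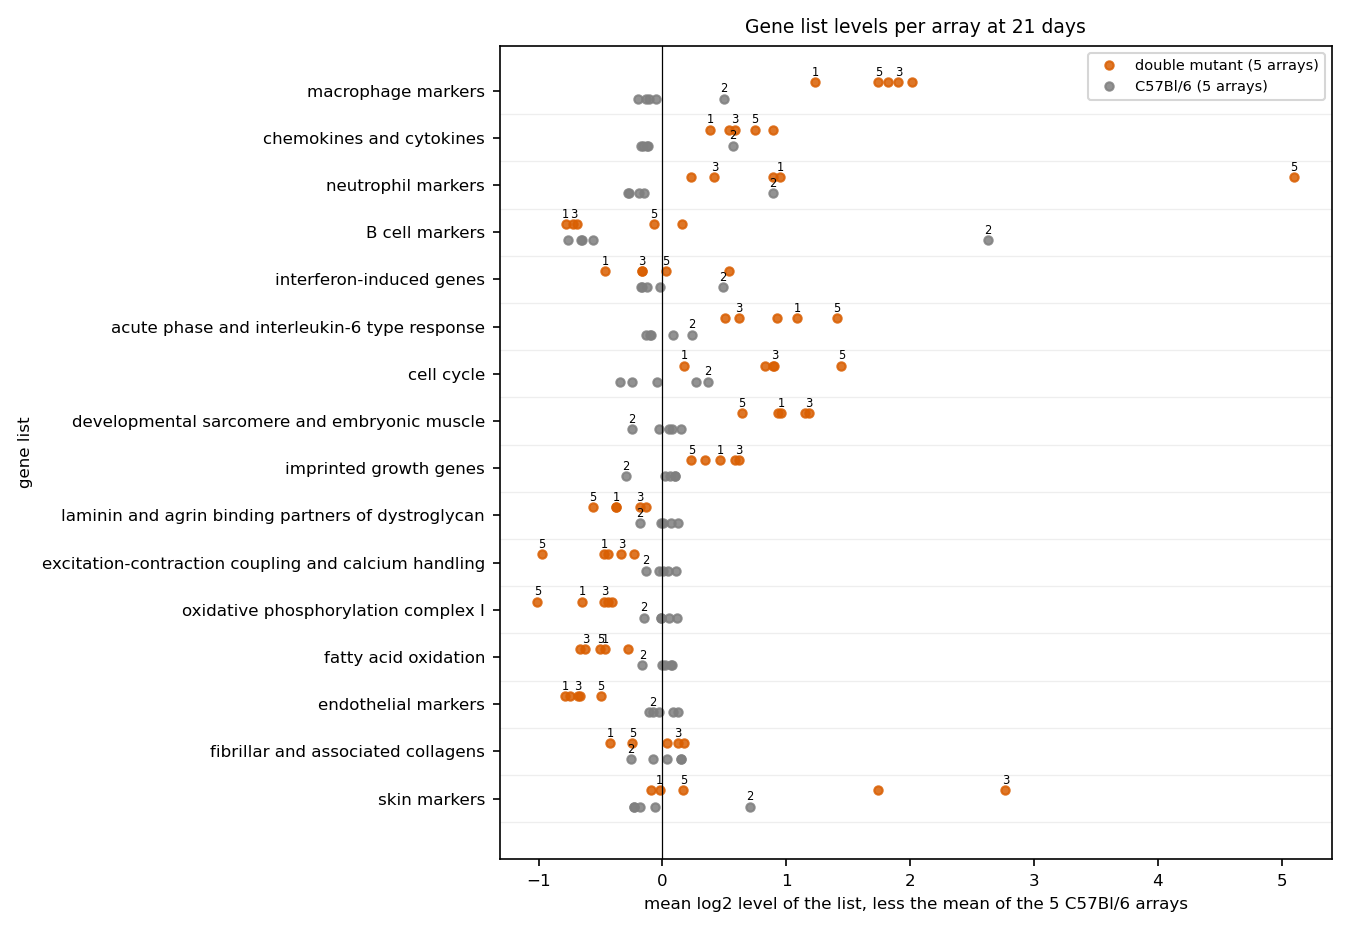
Mean log2 level of 16 gene lists on each array of 21 days, less the mean of the 5 C57Bl/6 arrays; double mutant arrays in orange above C57Bl/6 arrays in grey, with the array number printed at arrays 1, 3 and 5 of the double mutant and array 2 of C57Bl/6. Endothelial markers and complex I separate the groups to the left and macrophage markers and the developmental sarcomere to the right, while neutrophil, skin and B cell markers are each carried by 1 or 2 arrays.

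Matrix genes had calls in both directions at this age, in numbers that moved with the arrays used. Of 18 fibrillar and associated collagens 2 rose and 2 fell (median -0.01). Without the other-tissue arrays 0 rose and 3 fell, and without double mutant arrays 1 and 5, 2 rose and 0 fell. The risers were Col5a2 and Col13a1, by 0.31 and 0.23. Both calls ended without C57Bl/6 array 2 (adjusted p = 0.11 and 0.1) or double mutant array 2 (0.062 and 0.081), and 1 of them ended without C57Bl/6 array 3 or double mutant array 1, 3 or 4. Col1a1, the main collagen chain of scar and tendon, read 10.62, 11.64, 11.81, 11.94 and 11.61 in the double mutant and 12.08 to 12.52 in C57Bl/6 (-0.80 ± 0.23), a call that ended without double mutant arrays 1 and 5 (-0.53, adjusted p = 0.099). Col15a1, a collagen of muscle and vessel basement membranes, fell by 1.20 ± 0.19. Of 27 matrix glycoproteins 9 rose and 5 fell, also without the other-tissue arrays, while without double mutant arrays 1 and 5, 11 rose and 1 fell. Postn (periostin), a glycoprotein of repairing tissue, read 12.06, 12.69, 12.77, 12.77 and 12.16 in the double mutant and 11.19 to 11.69 in C57Bl/6 (0.95 ± 0.22), and Thbs1, an activator of TGF-beta, rose by 1.52. Tnc (tenascin C), another glycoprotein of repair, rose by 1.13 with no overlap. Timp1, the inhibitor of metalloproteases, read 10.21, 10.37, 10.36, 10.26 and 10.13 in the double mutant and 7.01, 6.95, 7.82, 7.81 and 7.45 in C57Bl/6 (2.86 ± 0.27). Lox, which cross-links collagen, rose by 0.98. Tnmd (tenomodulin) of tendon read 7.45, 9.91, 10.01, 10.29 and 7.44 in the double mutant and 10.15 to 10.86 in C57Bl/6, and its difference of -1.55 was -0.50, with no call, without arrays 1 and 5 (adjusted p = 0.16).

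Of 29 genes of the myostatin, activin and BMP axis 3 rose and 9 fell (median -0.05), and of 18 of the insulin and IGF axis 7 rose and 2 fell (median 0.17). The IGF axis risers numbered 2 without double mutant array 1, 3 without array 5 or without both, and 4 without C57Bl/6 array 4. Mstn (myostatin), which restrains growth, read 7.42, 9.04, 9.16, 9.13 and 6.54 in the double mutant and 10.24, 10.01, 10.26, 9.87 and 9.92 in C57Bl/6 (-1.80 ± 0.30). Igfbp5, which binds insulin-like growth factors, read 8.46, 9.66, 9.86, 9.94 and 9.0 in the double mutant and 10.68 to 11.18 in C57Bl/6 (-1.61 ± 0.18, adjusted p = 1.6e-09, limma). Of 24 Wnt and Hippo related genes 5 fell and none rose: the secreted inhibitors Frzb and Wif1 (-1.67 and -0.91), the ligand Wnt5a (-0.99), Rspo3 and Fzd7. That share of fallers is near the 18.5% over all genes, of which 15.4% rose. Of 22 atrophy genes 5 rose and 4 fell, beside 15.4% and 18.5% of all genes. There were 2 risers without double mutant array 1 or 5, 1 riser and 5 fallers without both, and 8 risers without array 3. The ubiquitin ligase Fbxo32 (atrogin-1) read 12.15, 9.15, 7.70, 9.38 and 11.80 in the double mutant and 8.44 to 9.02 in C57Bl/6 (1.32 ± 0.42, adjusted p = 0.013, limma). That call rested on arrays 1 and 5: it ended without array 1 (0.79, adjusted p = 0.12), without array 5 (0.88, 0.099), and the difference was 0.02 without both. Trim63, the ligase that usually moves with it, read 12.49, 9.31, 8.97, 9.64 and 12.20 in the double mutant and did not pass (0.61 ± 0.38), though it did without array 3 (1.00, adjusted p = 0.036). Without arrays 1 and 5 its difference was -0.61 (adjusted p = 0.11), and leaving out single arrays gave 0.11 to 1.00.

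Of 21 Schwann cell and myelin genes 3 rose and 8 fell (median -0.20). The myelin proteins Mal and Mag fell by 0.77 and 0.56 beside Pmp2. Scn7a, a sodium channel of non-myelinating Schwann cells, rose by 0.82 with no overlap. Of 16 skin markers 12 rose, but 7 without the other-tissue arrays, 2 without double mutant array 2 and 1 without array 3.

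Set beside Dmdmdx muscle of the same age, the double mutant differed at 5475 genes (27.5%), 2765 higher (13.9%) and 2710 lower (13.6%). With array medians subtracted the split was 4074 higher and 1997 lower. Without the other-tissue arrays, which leaves 2 Dmdmdx arrays, the counts were 703 and 1020. Apart from the chromosome 12 hairpins, the list counts against Dmdmdx were not made again without those arrays. Interferon-induced genes differed to one side: 22 of 27 were lower in the double mutant and none higher (median -0.92), with mean levels of 6.88 to 7.88 in the double mutant and 7.71 to 8.88 in Dmdmdx. Ifi213, an interferon-induced DNA sensor of the p200 family, read 4.94, 5.14, 5.61, 4.99 and 6.01 in the double mutant and 9.03, 6.80, 8.98, 7.37 and 7.12 in Dmdmdx (-2.52 ± 0.41, adjusted p = 1.9e-05, limma). Lymph node markers averaged 6.11 to 8.0 in the double mutant and 6.00 to 9.12 in Dmdmdx, where arrays 1, 3 and 5 were the high ones. Ifi213 was highest on Dmdmdx arrays 1 and 3 but not on array 5 (7.12). The part of lymph node tissue in the difference was not tested. Of 37 macrophage markers 15 were lower and 3 higher than in Dmdmdx, among the lower ones Adgre1 (-1.27, adjusted p = 0.00028, limma). Vsig4 was higher than in Dmdmdx by 1.86 ± 0.32, with no overlap (6.67 to 6.95 in Dmdmdx). Retnla, a product of alternatively activated macrophages, read 6.90, 8.94, 8.62, 8.5 and 5.90 in the double mutant and 10.01 to 10.50 in Dmdmdx.

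Among the genes higher than in Dmdmdx, several had double mutant arrays 1 and 5 on top. Inmt, a methyltransferase, read 10.77, 9.97, 8.29, 9.10 and 10.50 in the double mutant and 7.75, 6.45, 7.79, 8.21 and 7.44 in Dmdmdx (2.20 ± 0.48, adjusted p = 0.00067, limma). Slc10a6, a carrier of sulphated steroids, read 10.10, 7.91, 8.36, 7.95 and 10.49 in the double mutant and 6.64 to 7.45 in Dmdmdx (1.88 ± 0.34). Fkbp5, a chaperone of the glucocorticoid receptor that glucocorticoids induce, read 10.44, 9.08, 8.56, 8.70 and 10.68 in the double mutant and 7.33 to 8.03 in Dmdmdx (1.73 ± 0.34). Of 18 glucocorticoid-responsive genes 10 were higher and 1 lower than in Dmdmdx, and 7 rose and 1 fell against C57Bl/6, where 4 rose without double mutant array 5 or without arrays 1 and 5. The receptor gene itself, Nr3c1, fell by 0.54 against C57Bl/6, with 9.18 to 9.36 in the double mutant and 9.73 to 9.84 in C57Bl/6. The chromosome 12 hairpins also set the double mutant apart from Dmdmdx: 33 of 40 were higher and none lower, with a median of 0.57. Without the other-tissue arrays 23 were higher (median 0.44). They did not set it apart from Largemyd in the same way: 3 of the 40 were higher than in Largemyd and none lower, with a median of 0.24.

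The double mutant differed from Largemyd muscle at 1104 genes (5.54%), 347 higher (1.74%) and 757 lower (3.8%). Both the number and the split depended on the arrays: there were 14 higher and 31 lower with only the 10 arrays of the 2 groups, 844 and 714 with array weights, and 1018 and 945 without the other-tissue arrays. The last setting gave 703 and 1020 against Dmdmdx, but it leaves 4 Largemyd and 2 Dmdmdx arrays, so these counts are not alike. With all 5 arrays of each group, fewer genes differed from Largemyd than from Dmdmdx. With only the arrays of the groups compared, 1998 were higher and 2060 lower than in Dmdmdx, and with array weights 3761 and 3211. How near the lineages lie was not tested. Prg4 was higher in the double mutant by 1.38 ± 0.24, with 12.35 to 12.85 in the double mutant and 10.61 to 11.97 in Largemyd. Snord53, a small nucleolar RNA, read 10.30, 10.19, 10.25, 9.17 and 10.48 in the double mutant and 8.41 to 8.95 in Largemyd (1.36 ± 0.28). Lrmda and Nxpe4 were higher than in Largemyd by 1.34 and 1.33, and for these the Largemyd arrays lay below all other arrays of 21 days: Lrmda read 7.40 to 7.70 in the double mutant, 5.73 to 6.56 in Largemyd and 7.35 to 7.71 in C57Bl/6. Lower than in Largemyd were Mss51 (-1.72), Pmp2 (-1.66), Pttg1 (-1.57), Lgi1 (-1.55) and Kera (-1.49). The call for Lgi1 ended without double mutant array 1 (-1.27, adjusted p = 0.06, limma), without arrays 1 and 5 (0.18), and with only the 10 arrays (0.14). That for Kera ended with the 20 arrays of 21 days alone (adjusted p = 0.091, limma), with only the 10 arrays (0.34) and with array weights (0.073). Without double mutant arrays 1 and 5, Kera differed by -0.43, with no call. Of the 11 laminin partners of dystroglycan 6 were lower and none higher than in Largemyd, and 7 were lower and none higher than in Dmdmdx. Macrophage markers numbered 2 higher and 2 lower against Largemyd, and endothelial markers 1 lower of 30.

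Each lineage was also set against the same 5 C57Bl/6 arrays, so these figures share their control and are given side by side only. Over all genes 25.2% differed in Dmdmdx (11.7% rose and 13.5% fell) and 23% in Largemyd (9.89% rose and 13.1% fell). Of 30 endothelial markers 28 fell in the double mutant, 22 in Dmdmdx and 22 in Largemyd, with medians of -0.63, -0.43 and -0.48. Of 35 complex I genes 31 fell in the double mutant, 27 in Dmdmdx and 17 in Largemyd. Of 37 macrophage markers 34 rose in the double mutant, 35 in Dmdmdx and 32 in Largemyd, with medians of 1.58, 2.22 and 1.60. Of 27 interferon-induced genes 2 rose in the double mutant, 24 in Dmdmdx and 4 in Largemyd. Of 40 chromosome 12 hairpins 35 rose in the double mutant, 1 in Dmdmdx and 21 in Largemyd, with medians of 0.64, 0.06 and 0.34.

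The difference between double mutant and C57Bl/6 was not the same at 21 days as at 3 months. The test of that change passed at 3086 genes (15.5%), 1136 with a more positive difference at 21 days (5.7%) and 1950 with a more negative one (9.78%). At 3 months itself 30.1% of genes differed between double mutant and C57Bl/6, 14.6% higher and 15.5% lower. Matrix genes were prominent in the change. Of 18 fibrillar collagens 11 had a more negative difference at 21 days and none a more positive one (median -0.76), and 11 rose at 3 months where 2 rose at 21 days. Of 27 matrix glycoproteins 16 were more negative and 1 more positive, and 21 rose at 3 months. Of 11 laminin partners 10 were more negative and none more positive; at 3 months 7 rose and 1 fell. Mmp12, the macrophage elastase, rose by 1.69 at 21 days and by 4.50 at 3 months, a change of -2.81 ± 0.50 (adjusted p = 5e-05, limma).

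Of 30 endothelial markers 19 were more negative at 21 days and none more positive, and 7 fell at 3 months. Of 21 Schwann cell and myelin genes 6 were more negative and none more positive, while of 14 neuromuscular junction genes 2 were more positive and none more negative. Aplnr differed by -1.81 at 21 days and by 0.96 at 3 months (adjusted p of the change 6.2e-08, limma). Pmp2 differed by -2.92 at 21 days, with a change of -2.54 ± 0.31. In the other direction, Nos1 had no call at 21 days and a difference of -2.39 at 3 months, a change of 2.19 ± 0.30 (adjusted p = 5.5e-07, limma). Of 24 amino acid breakdown genes 9 were more positive at 21 days, and 21 fell at 3 months. Neutrophil genes led the positive changes, among them Ngp (6.74 ± 1.79) and S100a8 (5.00 ± 1.43); on double mutant array 5 these 2 genes read 12.70 and 11.75, and 8 of 15 neutrophil markers passed in that direction. Without double mutant arrays 1 and 5 together neither gene passed (4.96, adjusted p = 0.066, and 3.65, adjusted p = 0.09). The bone gene Ibsp was also among the 5 largest positive changes, and it too did not pass without those arrays (3.29, adjusted p = 0.072, limma). At 3 months marrow markers averaged 7.66 to 10.12 on the C57Bl/6 arrays and 6.71 to 6.88 on the double mutant arrays. Bone and cartilage markers averaged 7.3 to 8.12 on those C57Bl/6 arrays and 6.8 to 7.07 on those double mutant arrays. The part of marrow or bone in the controls of 3 months in these positive changes was not tested. The chromosome 12 hairpins gave 26 of 40 more positive and none more negative, with 4 that rose at 3 months. Without the other-tissue arrays 17 were more positive, and 13 with only the arrays of the groups compared.

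**Figure D5:**
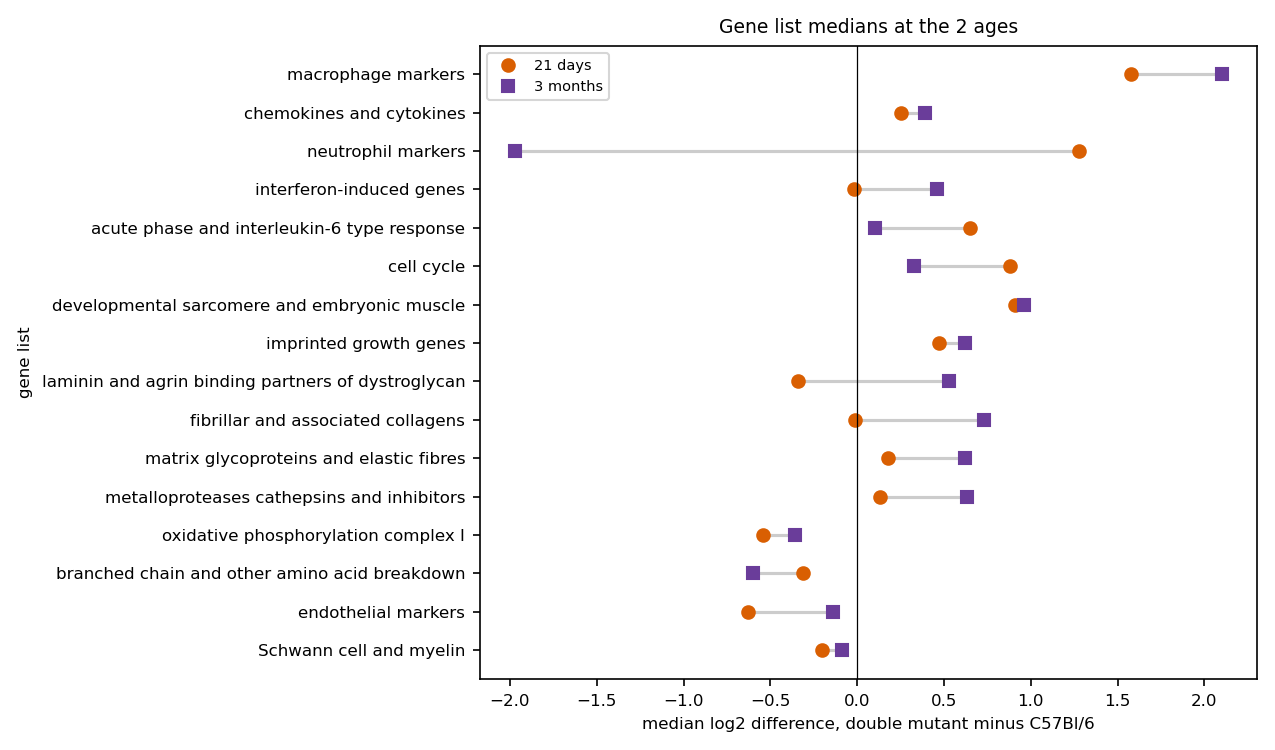
Median log2 difference (double mutant minus C57Bl/6) of 16 gene lists at 21 days (orange) and at 3 months (purple), each age against its own C57Bl/6 arrays. Fibrillar collagens have medians of -0.01 and 0.73, macrophage markers 1.58 and 2.10, and endothelial markers -0.63 and -0.14.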

How the data were processed

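Calf muscle RNA was hybridised to Affymetrix Mouse Gene 1.0 ST arrays, 1 array per animal, 5 animals in each of 12 groups, 60 arrays in all. The deposited values are log2 expression per probe set, made by the authors with Affymetrix Expression Console and RMA, per the submitters' processing notes; versions and genome build are not given in the sources used here. Values ran from 1.98 to 14.49, and the 60 arrays held 0 identical pairs. Arrays carry no read depth, so the number of animals limits the precision. Each p-value sets a difference against a spread between animals that was estimated over all 12 groups, not over the groups compared alone.

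Of 35556 probe sets 21789 had 1 symbol in the platform annotation, 1621 had several and 12146 had none; 21698 were updated to current RefSeq symbols by Entrez identifier. For a gene with more than 1 probe set (998 genes) the probe set of highest mean was kept, leaving 19938 genes. limma 3.58.1 in R 4.3.3 fitted the 12 group means on all 60 arrays (48 residual degrees of freedom), with Benjamini-Hochberg adjustment within each comparison and a threshold of 0.05. The fit was tested on simulated data. Tables were made with Python 3.11.15 and pandas 2.3.3.

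Genes were named by a rule. It took the 15 largest rises and 15 largest falls that passed with arrays of the groups not overlapping. Predicted, clone-named and olfactory genes were left out. It also took Dmd, Utrn and Dag1, and up to 6 of the largest passing members of each gene list, plus members in order of role. Of the other comparisons it took the 5 largest each way, not all of which are given in the text. The 70 lists (1349 of 1453 genes measured) and all named members were chosen with earlier results of these data known. Array means differed by age, so levels were compared only within an age. An array was called an other-tissue array where its marrow, lymph node or skin marker mean exceeded the age's median by over 2 on the log2 scale. Alternatives were other sample sets, array medians subtracted, array weights, probe set choices, a low-level filter, a trended robust variance and leaving out arrays. Arrays of 6 months served only to estimate the spread, and 1 gene is not reported here.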

Additional observations from a re-analysis of the deposited data

Results flagged for a closer look

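Among 446 groups of 5 arrays (named genes and gene lists, in the double mutant and in C57Bl/6 at 21 days) 43 held an array set apart from its 4 companions, its gap to the nearest of them exceeding 0.71 of the group's range. That is 9.64% of the groups. Chance sets apart about 1 in 20 of independent groups, but these groups read the same 10 arrays again and share genes. The share therefore cannot be read against that rate. Of the 43 arrays 9 were double mutant array 5, 3 were double mutant array 1, 2 were double mutant array 2, 27 were C57Bl/6 array 2 and 2 were C57Bl/6 array 1.

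Double mutant array 5 was high for the neutrophil gene Retnlg (11.7), for Thbs1 (12.39) and for the mean levels of neutrophil markers (10.87), marrow markers (9.65) and cytokine receptors (9.43), and low for Dtna (9.84), Chrna1 (10.03), Mymx (6.95) and Pmp2 (4.92). Double mutant array 1 was low for Col1a1 (10.62), Cd44 (7.94) and Atp6v0d2 (7.46). Double mutant array 2 was high for Nnat (8.67) and low for H2-Ea (5.5).

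C57Bl/6 array 2 was high for immune genes, with C1qb at 10.6, Cybb at 9.96, Il7r at 9.7, Csf1r at 9.42, Serpina3n at 9.22, Cd68 at 8.55, Retnlg at 6.87 and Chil3 at 5.0. Its list means were high for lymph node markers (9.83), MHC class II presentation (9.45), B cells (9.18), phagocyte oxidase (9.06), cytokine receptors (8.77), T and NK cells (7.89), macrophages (7.83), interferon-induced genes (7.83), chemokines and cytokines (7.2), skin (7.05), neutrophils (6.66) and marrow (6.56). The same array was low for Vegfa (9.87), Kera (9.37), Gsta4 (7.91) and Col5a2 (7.79), and for the mean levels of the tricarboxylic acid cycle (11.0), matrix glycoproteins (9.3) and imprinted growth genes (8.37). C57Bl/6 array 1 was high for Mag (7.75) and Mir126a (4.06).

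For 72 of the named genes the log2 difference between double mutant and C57Bl/6 at 21 days differed from that at 3 months by limma's test of the difference itself; each value below is the difference at 21 days minus that at 3 months. It was positive for the inflammatory genes Lcn2 (6.04), Chil3 (4.75), Vsig4 (1.44), Cd163 (0.79) and Osm (0.61). It was positive for the glucocorticoid-responsive Fkbp5 (1.86), the ubiquitin ligase gene Fbxo32 (2.6), Nos1 (2.19), Hspb1 (1.22), Flnc (1.04), Prg4 (1.0), Myh8 (1.0), Xdh (0.98), Thbs1 (0.92), Vegfa (0.58) and Junb (0.58). In the chromosome 12 cluster it was positive for Mir136 (1.96), Mir134 (1.24), Mir380 (1.14), Mir434 (1.13), Mir300 (0.98), Mir485 (0.98), Mir382 (0.87) and Rtl1 (0.57), and outside it for Mir27a (0.56). Marrow markers were higher in C57Bl/6 than in the double mutant at 3 months, and their part in the values of Lcn2 and Chil3 was not tested.

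The value was negative for the vessel and perivascular genes Aplnr (-2.77), Cdh5 (-0.73), Rgs5 (-0.63), Hey1 (-0.5) and Notch3 (-0.48). Matrix and tendon genes with negative values were Tnmd (-2.47), Col15a1 (-2.18), Kera (-1.86), Col1a1 (-1.64), Postn (-1.51), Col5a2 (-0.89) and Lox (-0.68). Basement membrane and adhesion genes with negative values were Lama4 (-1.14), Itga6 (-0.98), Hspg2 (-0.88), Lama2 (-0.64), Lamb2 (-0.49), Egflam (-0.4) and Agrn (-0.33). For genes of the dystrophin complex and dystroglycan sugar chain the values were -0.69 for Sspn, -0.46 for Pomgnt1 and -0.36 for B4gat1. Imprinted and growth genes had -2.17 for Nnat, -1.78 for Igfbp5, -1.75 for Igf2, -1.07 for Ndn and -0.75 for Peg3. Muscle genes had -1.83 for Actc1, -1.43 for Ky, -1.25 for Ddit4l, -1.08 for Ehd2, -1.07 for Klhl33 and -0.88 for Jph2. Metabolic genes had -0.93 for Ndufc1, -0.81 for Cox7a1, -0.63 for Decr1 and -0.55 for Sucla2. Nerve and myelin genes had -2.54 for Pmp2, -0.66 for Mag and -0.6 for Mal. The immune genes Cd28, Adgre1 and Csf1r had -1.79, -1.25 and -0.74, and the signalling genes Frzb, Wnt5a, Rspo3 and Nr3c1 had -0.86, -0.67, -0.57 and -0.36.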

How the results depend on the processing

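No paired analysis was possible because the array titles give animal identifiers that are not shared between lineages. No named gene whose difference passed the test changed its direction under an alternative run. Of the named calls 13 ended with only the arrays of the groups compared and 16 without double mutant arrays 1 and 5. Of those that did not pass, Trim63 (0.61) was -0.61 without double mutant arrays 1 and 5 and -0.11 with array weights, and Pax7 (0.05) was -0.03 without double mutant array 4. The median of integrin and costamere genes was 0.08, and -0.01 without the other-tissue arrays, and that of T and NK cell markers was -0.15 and 0.30. Of 176 genes named in the comparison with C57Bl/6 162 passed, and 140 passed under every alternative run, which included leaving out each array in turn and, as an alternative chosen after seeing the data, leaving out double mutant arrays 1 and 5 together. The genes passing numbered 3076 higher and 3683 lower in the double mutant than in C57Bl/6, 2765 and 2710 against Dmdmdx, 347 and 757 against Largemyd, and 1136 and 1950 with a more positive or more negative difference at 21 days than at 3 months. Leaving out 1 array gave 2554 to 2984 and 3337 to 3739 against C57Bl/6, 1726 to 2790 and 1856 to 2676 against Dmdmdx, 175 to 810 and 373 to 1113 against Largemyd, and 846 to 1700 and 1594 to 2031 for the age difference. A 2-fold minimum left 326 and 214, 105 and 166, 19 and 30, and 137 and 257 in the same order. With only the arrays of the groups compared, 1994 were higher than in C57Bl/6, and 14 higher and 31 lower than in Largemyd. With every probe set tested, 4926 were higher than in C57Bl/6 and 584 higher than in Largemyd. The 20 arrays of 21 days alone gave 96 and 270 against Largemyd. Array weights gave 844 higher and 714 lower than in Largemyd and 2673 more positive at 21 days. Subtracting array medians gave 497 lower than in Largemyd. Without the other-tissue arrays 703 and 1020 differed from Dmdmdx, 1018 were higher and 945 lower than in Largemyd and 1971 were more positive at 21 days. Without double mutant arrays 1 and 5, 1688 and 1475 differed from Dmdmdx and 317 were lower than in Largemyd. The smaller counts in subsets rest partly on fewer arrays, and the cause of the other shifts was not tested. Low-level genes lie near background, where a log2 difference is understated.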
